A study of Mus musculus with 4 samples.

Results

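The genes described here are 10 that carry or set sodium and potassium transport in the distal part of the mouse kidney tubule: the cotransporters Slc12a1 and Slc12a3, the 3 subunits of the epithelial sodium channel Scnn1a, Scnn1b and Scnn1g, the potassium channel Kcnj1, the kinases Wnk1, Wnk4 and Sgk1, and the mineralocorticoid receptor Nr3c2. They were chosen by symbol. The count tables hold 31054 features, of which the reporter tdTomato was left out, and all 10 genes were present among the 31053 analysed. Their unique molecular identifiers (UMIs, each standing for 1 captured RNA molecule) were summed per library over the cells of each tubule segment, and BPTES was compared with DMSO. BPTES is a small-molecule inhibitor of glutaminase, the enzyme that turns glutamine into glutamate, and DMSO was its vehicle. Both groups were kidneys of 19-month-old male C57BL/6 mice, with no engineered allele named in the labels, treated for 1 month. Each group had 2 libraries made with the 10x Genomics 3′ single-cell kit, after digestion with liberase at raised temperature for 1 hour and a sort that mixed 20000 CD45-negative with 9000 CD45-positive cells of a tissue. The labels do not say that the libraries came from separate animals, so the p-values below measure the spread between these libraries only.

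The thick ascending limb takes up sodium, potassium and chloride through the Slc12a1 cotransporter, and Kcnj1 returns the potassium to the lumen. The distal convoluted tubule takes up sodium with chloride through Slc12a3, which the WNK kinases switch on through the kinase Stk39. Further downstream, in the connecting tubule and the principal cells of the collecting duct, sodium enters through the epithelial channel and potassium leaves through Kcnj1. Aldosterone acts there through Nr3c2, while Hsd11b2 removes the glucocorticoids that would otherwise occupy the receptor, and the kinase Sgk1 is a steroid-induced gene that slows removal of the sodium channel from the membrane.

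Since steroid receptors bind DNA, the promoters of the hormone-induced kinase Sgk1, of Kcnj1, Scnn1b and Scnn1g are shown, from RefSeq on GRCm38.p6. The channel subunits Scnn1b and Scnn1g passed the test in the distal convoluted tubule with all libraries, but not under every setting (below). Each promoter runs from 250 bases before the start site to 50 after it. Promoters were found for 9 of the 10 genes. Capitals mark AGAACA, a half-site of the receptor element that is called the element below, or its reverse complement TGTTCT, searched on both strands.
Sgk1, chr10:21993640-21993939, plus strand: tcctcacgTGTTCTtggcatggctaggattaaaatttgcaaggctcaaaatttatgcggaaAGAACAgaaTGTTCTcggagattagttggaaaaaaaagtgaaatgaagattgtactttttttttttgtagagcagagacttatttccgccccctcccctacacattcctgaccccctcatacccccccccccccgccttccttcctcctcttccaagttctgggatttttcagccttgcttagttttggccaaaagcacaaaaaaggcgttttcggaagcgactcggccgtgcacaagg
Kcnj1, chr9:32393735-32394034, plus strand: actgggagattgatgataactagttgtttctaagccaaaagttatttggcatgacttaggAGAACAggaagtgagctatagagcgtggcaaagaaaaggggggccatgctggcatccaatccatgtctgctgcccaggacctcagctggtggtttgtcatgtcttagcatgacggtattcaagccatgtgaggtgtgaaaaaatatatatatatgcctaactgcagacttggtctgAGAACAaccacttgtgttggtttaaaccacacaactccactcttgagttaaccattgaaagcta
Scnn1b, chr7:121864788-121865087, plus strand: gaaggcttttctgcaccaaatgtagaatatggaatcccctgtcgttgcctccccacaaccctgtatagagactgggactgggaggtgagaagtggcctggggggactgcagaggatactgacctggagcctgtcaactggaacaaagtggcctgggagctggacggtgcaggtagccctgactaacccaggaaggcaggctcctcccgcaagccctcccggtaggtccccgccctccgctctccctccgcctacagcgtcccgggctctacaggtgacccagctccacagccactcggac
Scnn1g, chr7:121734229-121734528, plus strand: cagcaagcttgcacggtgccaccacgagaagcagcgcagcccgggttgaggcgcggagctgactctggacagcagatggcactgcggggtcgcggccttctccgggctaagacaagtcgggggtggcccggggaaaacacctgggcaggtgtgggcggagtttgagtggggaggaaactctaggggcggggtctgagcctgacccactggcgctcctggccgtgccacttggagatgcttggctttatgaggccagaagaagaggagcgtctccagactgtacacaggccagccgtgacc
The element AGAACA occurs in 19% of the 32851 mouse promoters of this length, 6233 of them. The table holds 6 Sgk1 promoters, and the one shown has the most matches of them: of the others, 3 hold none and 2 hold 1 each, at -195 and -13, with no palindrome. In the promoter shown the element starts at -242, -189 and -180 from the start site, and the latter pair form the palindrome of AGAACA, any 3 bases and TGTTCT, which stands in 3 of the 32851 promoters (0.00913%). Since it was chosen from 6 for its matches, these shares are no measure of how unusual it is. The Kcnj1 promoter holds the element at -190 and -14. No match stands in the Scnn1b and Scnn1g windows, nor in those of Slc12a1, Slc12a3, Wnk1, Wnk4 and Nr3c2, which are not shown. This says only that these letters are not in them. Of the 9 genes with a promoter, only Sgk1 and Kcnj1 held the element. Scnn1g (chr7:121734479-121768475) and Scnn1b (chr7:121865038-121918514) are neighbours on the plus strand of mm10, 96.562 kb apart. The other genes lie at chr2:125152505-125230002 (Slc12a1), chr8:94329201-94366214 (Slc12a3), chr6:125320659-125344943 (Scnn1a) and chr9:32372493-32399197 (Kcnj1). The kinases lie at chr6:119923969-120038672 on the minus strand (Wnk1), chr11:101260567-101277409 (Wnk4) and chr10:21882184-21999903 (Sgk1), and the receptor gene at chr8:76899442-77245012 (Nr3c2). Genes on the opposite strand overlap Scnn1b (Cog7), Slc12a1 (Gm14002) and Wnk4 (Gm11615). Whether the counting used strand is not given in the sources used here, so the UMIs of these 3 are uncertain to that extent.

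The libraries held 249881074 to 297947661 UMIs in 17907 to 20091 barcodes, of which 10849 to 12076 per library were kept. Between 30.9% and 34.2% of barcodes were over the mitochondrial limit of 50%. Pairs of libraries shared 31 to 43 barcode sequences, 0.257% to 0.366% of the smaller library. The 24573 tubule cells included 1409 of the thick ascending limb, 714 of the distal convoluted tubule, 337 of the connecting tubule, 69 principal cells and 253 intercalated cells, beside 21386 proximal tubule cells. Of the thick limb cells, 757 were in sub-cluster 0, with a median of 906 UMIs and 3 of the segment's markers detected. The distal convoluted list came second there. At clustering resolution 2 a shallow sub-cluster of 414 cells (median 805.5 UMIs) was named distal convoluted, so the names of such shallow cells are uncertain. Principal cells numbered 17, 13, 10 and 29 in the libraries, too few to be tested alone. They were therefore also summed with the connecting tubule and with an unnamed sub-cluster between them, 597 cells in all; this sum was defined after the data were seen. Distal segments made up 12.1% (95% exact binomial interval 11.3% to 12.9%) and 10.6% (9.80% to 11.4%) of tubule cells with BPTES, and 10.0% (9.30% to 10.8%) and 15.9% (14.99% to 16.9%) with DMSO; these intervals cover counting error only (exact two-sided permutation p = 1; the smallest p that 2 against 2 libraries allow is 0.33). DMSO replicate 2 stood apart. It held 86 of the 105 cells of distal convoluted sub-cluster 10 and 54 of the 65 cells of thick limb sub-cluster 13. Sub-cluster 13 was led by Erbb4 and by Lcn2 and Clu, genes known from injured tubules. Its name is uncertain. In it 7 thick limb markers were detected, but none was among its leading genes. The distal convoluted list came second, as in the other thick limb sub-clusters. It also gave most of the thick limb Slc12a3 UMIs of DMSO replicate 2 (below). The name of sub-cluster 10 is uncertain. Its mean standardised marker level was the lowest of the distal convoluted sub-clusters (1.20, against 1.52 to 3.72). The connecting tubule list came second, as in the others. Slc12a3 was among the leading genes of sub-clusters 6 and 8, but not of 2 or 10. Several values below turn on sub-clusters 10 and 13 and are also given without them.

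The segments were named from markers that did not include the 10 genes, and the genes were left out of the clustering. Slc12a1 then averaged 9089 ± 1286 UMIs per 1000000 UMIs of the segment (CPM; mean ± SD, n = 4 libraries) in the thick ascending limb against 72.0 ± 41.6 CPM in the distal convoluted tubule. Slc12a3 averaged 7462 ± 450 CPM in the distal convoluted tubule against 880 ± 286 in the connecting tubule and 288 ± 302 in the thick ascending limb. Of the 3968 Slc12a3 UMIs in the thick ascending limb of DMSO replicate 2, 3822 came from sub-cluster 13; without it that library was at 46.2 CPM. In BPTES replicate 1 and DMSO replicate 1, 171 of 177 and 89 of 91 thick limb Slc12a3 UMIs came from the shallow sub-cluster 0. Each cotransporter was thus highest in the segment it is known for. The summed distal convoluted markers alone would not separate these segments, since they reached 2231 to 4623 CPM in the distal convoluted tubule and 4010 to 7291 CPM in the thick ascending limb.

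The sodium channel subunits had different ranges along the tubule. Scnn1a was highest in principal cells (295 ± 47.5 CPM), followed by intercalated cells (262 ± 46.6), connecting tubule (204 ± 35.6) and distal convoluted tubule (180 ± 40.2), and neighbours in this order overlapped. It was still at 101 ± 4.46 CPM in the thick ascending limb, which overlapped with neutrophils (85.3 ± 49.2). Scnn1b and Scnn1g, the subunits that complete the channel, were at low levels upstream of the connecting tubule. Scnn1b averaged 604 ± 89.9 CPM in principal cells and 366 ± 89.5 in the connecting tubule, which overlapped, then 123 ± 40.6 in intercalated cells, 54.9 ± 34.3 in the distal convoluted tubule and 5.81 ± 8.96 in the thick ascending limb. Scnn1g averaged 716 CPM in principal cells, 474 in the connecting tubule, 26.0 in the distal convoluted tubule and 26.0 in intercalated cells.

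Kcnj1 had like levels in all segments that recycle or secrete potassium: 636 CPM in principal cells, 569 in the distal convoluted tubule, 547 in the connecting tubule and 513 in the thick ascending limb. These 4 ranges overlapped from one to the next, and intercalated cells were at 14.2 CPM. Wnk1 averaged 2345 ± 553 CPM in the distal convoluted tubule and 1707 ± 561 in the connecting tubule, which overlapped. It was at 130 ± 24.3 CPM in principal cells and 87.5 ± 8.29 in the proximal tubule. Outside the tubule Wnk1 was at 768 CPM in macrophages and 501 in T cells, against 582 in the thick ascending limb. Wnk4 stood in separate steps, with 329 CPM in the distal convoluted tubule, 201 in the thick ascending limb and 120 in the connecting tubule, and no library of one segment reached the next. Nr3c2 ran from 945 CPM in principal cells and 839 in the connecting tubule to 434 in intercalated cells and 353 in the distal convoluted tubule. It was at 276 CPM in endothelium and 135 in the thick ascending limb.

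Sgk1 was the exception to the distal pattern. Its level was highest in endothelium (766 ± 145 CPM), then in thin limb (171 ± 117) and monocytes (123 ± 22.1). Principal cells had 31.9 ± 16.1 CPM, the connecting tubule 17.4 ± 9.33, the distal convoluted tubule 4.35 ± 1.44 and the thick ascending limb 4.14 ± 3.56. Within the thin limb the 4 libraries ranged from 67.1 to 338 CPM.

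**Figure D1:**
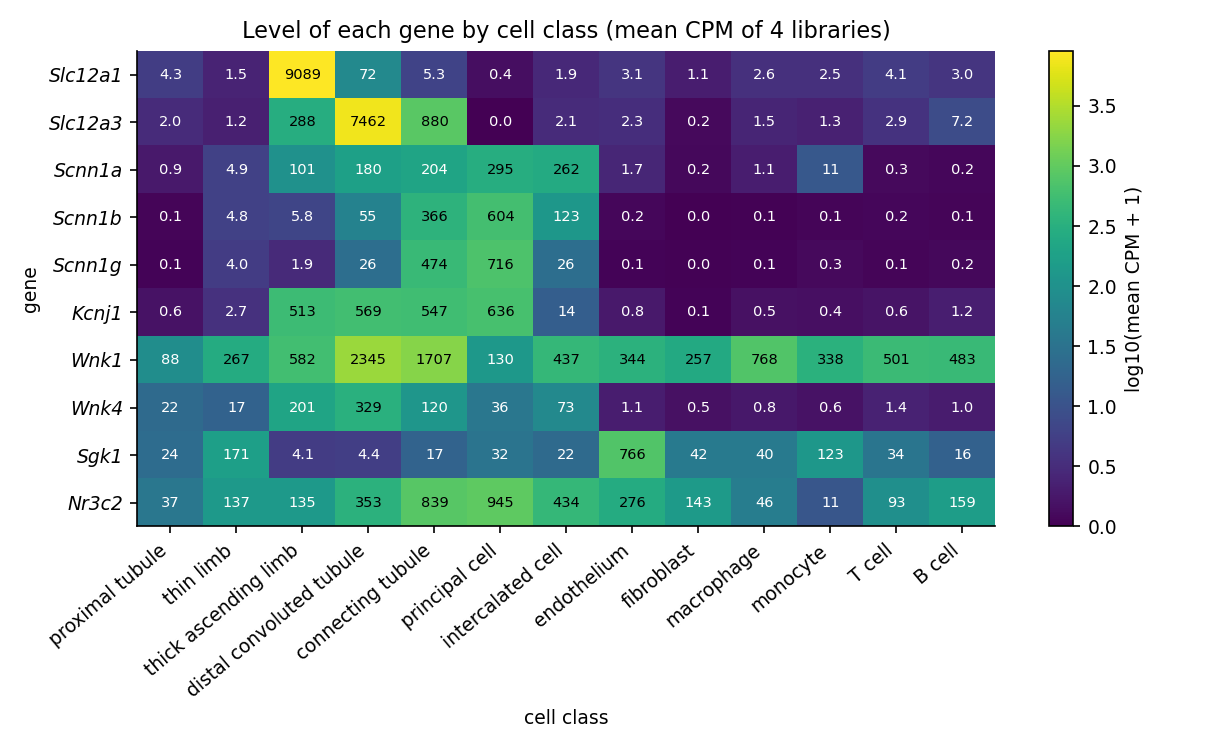
Mean level of each of the 10 genes (rows) in each cell class (columns) over the 4 libraries, as UMIs per 1000000 UMIs of the class, with colour on the log10 scale. Slc12a1 is highest in the thick ascending limb at 9089 CPM, Slc12a3 in the distal convoluted tubule at 7462 CPM, and Sgk1 in endothelium at 766 CPM.

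Over 68 sums (17 classes in 4 libraries, which share depth and source), the genes outside both lists most like each transporter were counted by Pearson's r of log2(CPM + 1), as a description. Slc12a1 was most like Defb42 (r = 0.94), Dusp15 and Tmem207. Slc12a3 was most like Uroc1 (r = 0.93), Abca13 and Pvalb, the last a marker used to name the segment. Scnn1a was most like Defb1 (r = 0.88), Scnn1b like Rhcg (r = 0.97), Scnn1g like Trpv5 (r = 0.96) and Kcnj1 like Tmem52b (r = 0.95). Trpv5 and Tmem52b are also markers used to name the classes. Among the 10 genes themselves, Scnn1b and Scnn1g were the most alike pair (r = 0.95).

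Co-detection was counted in single cells. Of the 594 distal convoluted cells with an Slc12a3 UMI, 129 also had a UMI of Scnn1b or Scnn1g. By library these were 16.6% and 12.3% with BPTES and 23.4% and 29.0% with DMSO. In the connecting tubule and principal class 83 of the 151 such cells did, 52.3% to 58.8% by library. No principal cell had an Slc12a3 UMI (0 of 69, which allows up to 4.35% of cells with a UMI and is no limit on cells that express it), while all 69 had one of Scnn1b or Scnn1g. T cells, which should lack these genes, had an Slc12a3 UMI in 2.42% to 4.65% of cells and an Scnn1b UMI in 0.0984% to 0.315%. The median UMI count per cell in the 4 libraries was 10742.5 to 11779 in T cells and 5034 to 12679 in distal convoluted cells. An Scnn1b UMI was found in 14.5% and 10.4% of distal convoluted cells with BPTES and in 22.9% and 32.7% with DMSO. After each cell was thinned to 2000 UMIs, leaving out 26 to 41 shallower cells per library, these shares were 4.87% and 2.42% against 7.79% and 12.2%. In the connecting tubule and principal class the thinned shares were 54.3% to 59.0%, and in T cells 0.0262% to 0.0412%.

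**Figure D2:**
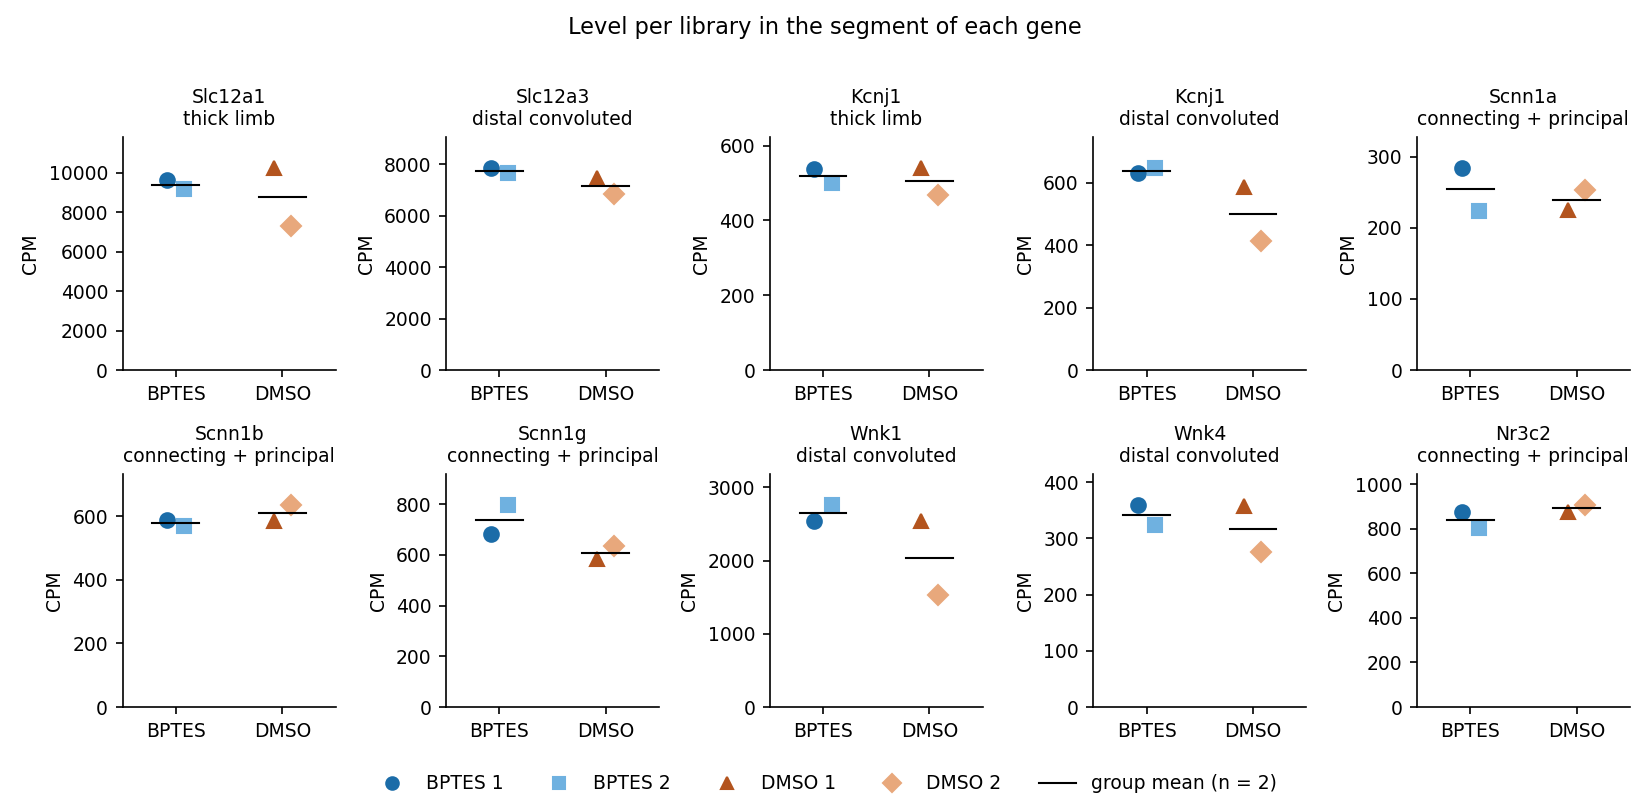
Level of 9 of the 10 genes by library (points, with the group mean as a line, n = 2) in UMIs per 1000000 UMIs of the class, on axes from 0, each in the segment it is known for and Kcnj1 in a pair of segments. The groups overlap for Slc12a1 (7284 to 10260 CPM), and both BPTES points lie above both DMSO points for Slc12a3 (7655 and 7876 against 6832 and 7486 CPM); without the sub-clusters mostly of 1 library both genes are lower in both BPTES libraries.

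In the thick ascending limb, none of the 8 genes tested passed the threshold (adjusted p at most 0.05 by edgeR's quasi-likelihood test with Benjamini-Hochberg adjustment over all genes); 7 of 10648 genes did, 0.0657%. Slc12a1 was at 9656 and 9155 CPM with BPTES and 10260 and 7284 CPM with DMSO. The BPTES values lay between the DMSO values, but without sub-cluster 13 they were 9882 and 9623 against 10541 and 10975 CPM, with both BPTES libraries below both DMSO libraries. Its fitted log2 fold change (BPTES minus DMSO, after TMM scaling of the libraries) was 0.27 (SE 0.28, edgeR adjusted p = 0.93). It was 0.64 without DMSO replicate 1 (edgeR adjusted p = 1.23e-05), -0.01 without DMSO replicate 2 and -0.03 without sub-cluster 13. Kcnj1, at 539 and 502 against 541 and 469 CPM, gave 0.22 (edgeR adjusted p = 0.92). Without sub-cluster 13 its levels were 555 and 520 against 560 and 595 CPM, no longer overlapping and lower with BPTES. Wnk4 was at 198 and 201 CPM with BPTES and 205 and 202 CPM with DMSO (fitted log2 fold change 0.16, edgeR adjusted p = 0.94). The levels were slightly lower with BPTES while the TMM-scaled fit was positive, and without sub-cluster 13 the fit was -0.07.

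Wnk1 in the thick ascending limb was at 631 and 708 CPM with BPTES and 423 and 565 CPM with DMSO, so that the groups did not overlap. The log2 fold change was 0.63 (SE 0.21, edgeR adjusted p = 0.65). Without DMSO replicate 1 it was 0.52 and without DMSO replicate 2 it was 0.77, both past the threshold, in fits where 10.1% of 11419 and 0.852% of 10915 genes passed. Without sub-cluster 13 the levels were 654 and 742 against 443 and 669 CPM, which overlapped, and the log2 fold change was 0.43 (edgeR adjusted p = 0.57). Sgk1 had 4.64 and 8.84 CPM with BPTES against 0.465 and 2.63 CPM with DMSO. These levels stood for 11, 16, 1 and 15 UMIs (log2 fold change 2.01, SE 0.68, edgeR adjusted p = 0.66). Slc12a3, the cotransporter of the next segment, was at 74.7 and 340 CPM with BPTES and 42.4 and 695 CPM with DMSO (fitted log2 fold change -0.60, SE 0.98, edgeR adjusted p = 0.96). Its direction turned with the libraries: it gave 2.39 without DMSO replicate 2 and 2.21 without sub-cluster 13, both past the threshold, 0.15 without BPTES replicate 1, and -1.48, past the threshold, without DMSO replicate 1. In the fit without sub-cluster 13, 0.416% of 10328 genes passed. Without it the levels were 78.3 and 322 against 46.1 and 46.2 CPM. In the whole segment 1 cell held 311 of the 616 Slc12a3 UMIs of BPTES replicate 2. Scnn1b, below the low-count filter with all libraries, passed without DMSO replicate 1 (-3.01) and with no low-count filter (-2.22, where 1.62% of 18510 genes passed).

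In the distal convoluted tubule the channel subunits Scnn1b and Scnn1g were lower with BPTES, while Slc12a3, Wnk1, Wnk4, Kcnj1 and Scnn1a did not pass the test and Sgk1 was too low to be tested. Of the 9 genes tested, 3 were lower and none higher, and over all genes 337 of 10060 passed, 3.35% (105 higher and 232 lower). With no low-count filter the same 3 passed, beside 4.04% of 17900 genes. The median log2 fold change was 0.14 over the 9 genes and -0.01 over all genes tested. Sub-cluster 2 was the largest by cells in 3 libraries, with 113 of 173 and 89 of 135 cells with BPTES and 55 of 131 in DMSO replicate 1. In DMSO replicate 2 it held 76 of 275 cells, beside 86 in sub-cluster 10 and 78 in sub-cluster 6.

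Scnn1b was at 32.1 and 20.4 CPM with BPTES (59 and 27 UMIs) and 74.1 and 93.0 CPM with DMSO (126 and 374 UMIs). Scnn1g was at 13.1 and 3.77 CPM (24 and 5 UMIs) against 32.4 and 55.0 CPM (55 and 221 UMIs). For both subunits the groups did not overlap. The log2 fold change was -1.64 for Scnn1b (SE 0.25, edgeR adjusted p = 0.0009) and -2.30 for Scnn1g (SE 0.38, edgeR adjusted p = 0.0019). Hsd11b2, the enzyme that guards the mineralocorticoid receptor, was at 13.1 and 37.7 CPM against 108 and 85.0 CPM and gave -1.96 (SE 0.30, edgeR adjusted p = 0.0009). With the mitochondrial limit lowered to 25%, none of these 3 genes passed (below). All 3 passed the threshold whichever library was left out, in fits where 2.02% and 2.8% of all genes passed without BPTES replicate 1 or 2, and 17.5% and 2.08% without DMSO replicate 1 or 2.

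Sub-cluster 10 gave the larger part of these UMIs in both DMSO libraries. It held 4 cells in each BPTES library, 11 in DMSO replicate 1 and 86 in DMSO replicate 2. It gave 8.47% and 14.8% of the Scnn1b UMIs of the segment with BPTES and 56.3% and 75.4% with DMSO. Of the Scnn1g UMIs it gave 54.2% and 40% with BPTES and 69.1% and 92.3% with DMSO. The share of all the segment's UMIs in that sub-cluster was 4.08%, 6.74%, 11.04% and 34.9% in the same order. With sub-cluster 10 left out, Scnn1b was at 30.7 and 18.6 CPM against 36.4 and 35.1 CPM, and Scnn1g at 6.25 and 2.42 against 11.2 and 6.49 CPM. The groups still did not overlap for either subunit, but the log2 fold changes were -0.56 for Scnn1b (edgeR adjusted p = 0.37), -0.93 for Scnn1g (edgeR adjusted p = 0.50) and -0.73 for Hsd11b2 (edgeR adjusted p = 0.43), and none of the 3 passed. Hsd11b2 overlapped there, at 10.8 and 38.8 against 48.3 and 28.2 CPM. In that fit 0.614% of 9604 genes passed. With the 10 genes and the pathway list used in clustering, the log2 fold changes were -0.97, -1.28 and -0.99, with edgeR adjusted p of 0.053, 0.22 and 0.11, and 1.38% of 9736 genes passed.

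Markers of the next segment were followed in the same cells. All 5 connecting tubule markers had UMIs in the distal convoluted cells of every library. Their summed level was 4265 and 4298 CPM with BPTES and 8449 and 5590 CPM with DMSO. Among them Slc8a1, the sodium-calcium exchanger, was at 223 and 574 against 1591 and 1450 CPM, and the calcium channel Trpv5 at 9.80 and 1.51 against 39.4 and 43.5 CPM, while Calb1 and Klk1 overlapped between the groups. S100g, the remaining marker, is part of the sum and is not given on its own. The part of these cells in the lower Scnn1b and Scnn1g was not tested. In sums like these, fewer cells of a type and less RNA per cell cannot be told apart.

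**Figure D3:**
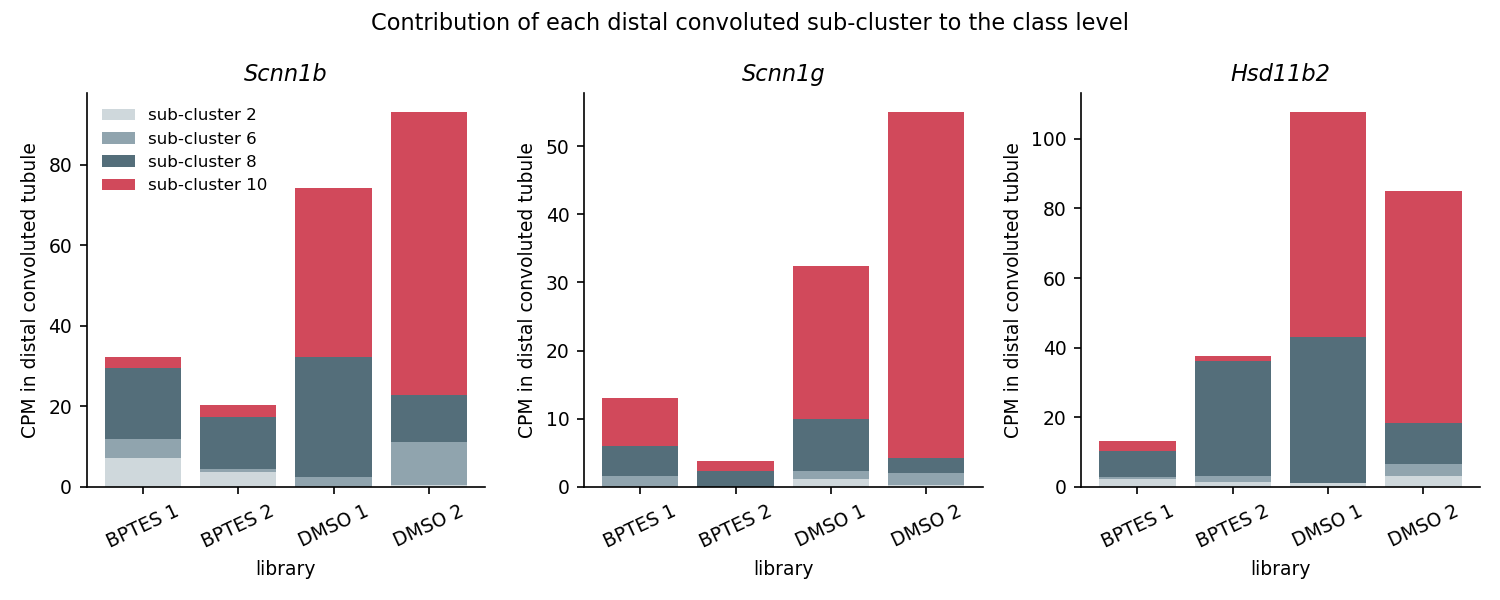
Level of Scnn1b, Scnn1g and Hsd11b2 in the distal convoluted tubule of each library (bar height, UMIs per 1000000 UMIs of the segment), split by the sub-cluster the UMIs came from. Sub-cluster 10 gives 75.4% of the Scnn1b UMIs and 92.3% of the Scnn1g UMIs in DMSO replicate 2, and 8.47% and 54.2% in BPTES replicate 1.

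Slc12a1, a gene of the neighbouring thick limb, was also lower in the distal convoluted tubule, at 44.1 and 46.7 CPM with BPTES and 133 and 64.2 CPM with DMSO (fitted log2 fold change -1.04, SE 0.27, edgeR adjusted p = 0.038). Only 8, 3, 8 and 18 cells of the libraries had an Slc12a1 UMI, and the 3 highest cells gave 83.3% to 100% of the UMIs. Without BPTES replicate 1, BPTES replicate 2 or DMSO replicate 1 the adjusted p by edgeR was 0.105, 0.057 and 0.125, and at clustering resolution 2 and without shallow clusters it was 0.336 and 0.328. At resolution 2, 4.11% of 10164 genes passed, Scnn1b and Scnn1g among them. Between the distal convoluted tubule and the thick ascending limb, the test of the difference in treatment effect passed for Slc12a1 and for none of the other 9 genes (-1.29 on the log2 scale, SE 0.29, edgeR adjusted p = 0.038; without BPTES replicate 1 or 2, 0.43 and 0.40), with 0.507% of 11052 genes past the threshold.

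The cotransporter of the segment itself, Slc12a3, was at 7876 and 7655 CPM with BPTES and 7486 and 6832 CPM with DMSO. The log2 fold change was 0.14 (SE 0.25, edgeR adjusted p = 0.79), and -0.16 without sub-cluster 10. The order of the groups turned with it, from both BPTES libraries higher to both lower, at 8004 and 8087 against 8340 and 8831 CPM. Wnk4, its activator, was at 360 and 323 CPM against 357 and 276 CPM (log2 fold change 0.14, SE 0.20). Wnk1 was at 2545 and 2763 CPM against 2544 and 1530 CPM. Here DMSO replicate 2 alone was low (fitted log2 difference 0.42, SE 0.25, edgeR adjusted p = 0.36). Without sub-cluster 10 the groups overlapped, at 2645 and 2926 against 2820 and 2047 CPM. Kcnj1, at 630 and 648 against 588 and 412 CPM, and Scnn1a, at 225 and 176 against 189 and 128 CPM, each gave a log2 fold change of 0.39 (edgeR adjusted p = 0.32 for both). Without DMSO replicate 1, Wnk1, Scnn1a and Kcnj1 gave 0.80, 0.67 and 0.64, all past the threshold. Nr3c2 was at 324 and 276 CPM with BPTES and 414 and 398 CPM with DMSO, without overlap (log2 fold change -0.41, SE 0.20, edgeR adjusted p = 0.26).

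In the connecting tubule and principal cells together, where the sodium channel works, no gene of the 10 passed among 9 tested, and 0.0271% of 11064 genes did. With no low-count filter 3 of the 10 passed, Wnk1 (0.78), Sgk1 (1.05) and Slc12a3 (0.77), beside 2.82% of 18304 genes, and Slc12a3 also passed without DMSO replicate 2 (1.33, with 0.708% of 11587 genes). Scnn1b was at 589 and 568 CPM with BPTES and 584 and 636 CPM with DMSO, a log2 fold change of 0.01 (SE 0.11, edgeR adjusted p = 0.99). Scnn1g was at 681 and 798 CPM against 582 and 635 CPM (log2 fold change 0.37, SE 0.13, edgeR adjusted p = 0.41). The BPTES values of Scnn1g stood above those of DMSO, and those of Scnn1b overlapped. The difference in treatment effect between this class and the distal convoluted tubule, tested as an interaction, was 1.61 for Scnn1b (SE 0.27, edgeR adjusted p = 0.011) and 2.59 for Scnn1g (SE 0.43, edgeR adjusted p = 0.011), on the log2 scale, with 0.563% of 11362 genes past the threshold. Without BPTES replicate 2 these were 1.35 and 1.94, short of the threshold. The interaction was not fitted without sub-cluster 10.

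Scnn1a in that class was at 284 and 223 against 224 and 252 CPM, and Kcnj1 at 703 and 545 against 584 and 564 CPM, both overlapping. Nr3c2 was at 872 and 802 CPM with BPTES and 876 and 907 CPM with DMSO. Its log2 fold change was -0.01 (SE 0.11), and its sign turned under 7 of the alternatives. Wnk1 was at 1019 and 785 CPM against 665 and 461 CPM. Both BPTES libraries lay above both DMSO libraries, with a log2 fold change of 0.76 (SE 0.20, edgeR adjusted p = 0.29). DESeq2 gave an adjusted p of 0.037 for it, and without DMSO replicate 1 the log2 fold change was 1.08 (edgeR adjusted p = 0.0029). In these fits 0.542% of 11064 and 2.08% of 11629 genes passed. Sgk1 had 51.6, 15.9, 14.9 and 20.1 CPM, with BPTES replicate 1 above the other libraries (log2 fold change 1.03, SE 0.49, edgeR adjusted p = 0.52). The summed level of 13 immediate early and dissociation genes, fast-responding like Sgk1, was 3394 and 3766 CPM with BPTES and 4980 and 4724 CPM with DMSO.

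In the connecting tubule alone 0.742% of 6876 genes passed, and 0 of the 9 genes tested. Scnn1b was at 299 and 286 CPM with BPTES against 404 and 474 CPM with DMSO (fitted log2 fold change -0.40, SE 0.19, edgeR adjusted p = 0.35). Nr3c2 had 637 and 685 against 966 and 1068 CPM (log2 fold change -0.44, edgeR adjusted p = 0.29). Both were lower in each BPTES library than in each DMSO library, yet missed the threshold. Wnk1 gave a log2 fold change of 0.86 (edgeR adjusted p = 0.10). The call of Wnk1 turned with the settings: it passed without DMSO replicate 1 (0.87) and without DMSO replicate 2 (0.82), and Slc12a3 passed without DMSO replicate 2 (1.24, against 0.69 with all libraries). The shares of all genes past the threshold in these fits were 4.05% and 2.29%. Both passed with no low-count filter, beside 1.61% of 15236 genes. With the 10 genes and the pathway list used in clustering, 4 of 8 tested passed, namely Wnk1 (1.66), Slc12a3 (1.56), Kcnj1 (1.26) and Scnn1a (1.21), all higher with BPTES, beside 11% of 7686 genes (844). At clustering resolution 2 Wnk1 alone of the 9 tested passed (0.99), beside 1.27% of 9932 genes.

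Intercalated cells, which secrete acid or base, had Scnn1a at 313 and 265 CPM with BPTES and 271 and 200 CPM with DMSO (fitted log2 fold change 0.42, SE 0.19, edgeR adjusted p = 0.59; without DMSO replicate 1, 0.66 and 0.016). None of the 8 genes tested passed there, against 0.0583% of 10296 genes. Without DMSO replicate 1, 5 of the 8 passed, namely Scnn1a, Scnn1g (1.62), Sgk1 (1.31) and Kcnj1 (3.65), higher with BPTES, and Scnn1b (-0.69), lower, beside 3.96% of 10813 genes. With no low-count filter Kcnj1 alone of the 10 did (1.83), beside 1.76% of 17169 genes. Of the Scnn1g UMIs of BPTES replicate 1, 91.7% came from 3 cells, and the summed connecting tubule markers over all intercalated cells were at 9562 and 2379 CPM with BPTES and 2894 and 2311 CPM with DMSO; their part in these values was not tested. Kcnj1 in these cells was at 39.9, 1.83, 13.2 and 1.93 CPM, and 98.7% of the UMIs of BPTES replicate 1 came from 3 cells. In the proximal tubule, which does not use these routes, none of 9 genes passed against 0.488% of 15973 genes, though Wnk1 did without BPTES replicate 1 (0.43, beside 7.85% of 16552 genes) and with no low-count filter (0.31, beside 7.75% of 23669). Over the summed distal segments, none of 10 passed against 0.0683% of 13172 genes, and over all tubule cells none of 10 against 0% of 17148 genes (0 genes by edgeR, 2225 at an unadjusted p under 0.05, and 454 by DESeq2). Over all tubule cells Scnn1g passed by DESeq2 (0.69) and without DMSO replicate 2 (0.93), and Slc12a1 (-1.01) and Slc12a3 (-1.17) passed without DMSO replicate 1. In these 3 fits 3.13%, 1.19% and 8.52% of all genes passed. In the distal sum Scnn1g gave a log2 fold change of 1.07 (SE 0.20, edgeR adjusted p = 0.17), Scnn1b 0.51 (SE 0.12, edgeR adjusted p = 0.21) and Sgk1 1.28 (SE 0.33, edgeR adjusted p = 0.24). These calls turned with the settings. Scnn1g and Scnn1b passed by DESeq2 (adjusted p = 1.51e-05 and 0.029), and Scnn1g passed without the sub-clusters mostly of 1 library (0.94, edgeR adjusted p = 0.039), in fits where 1.3% of 12405 and 0.538% of 13017 genes passed. With no low-count filter 5 of the 10 passed, these 3 with Wnk1 and Scnn1a, beside 4.51% of 21041 genes. Without DMSO replicate 1, 6 passed, those 5 with Kcnj1, beside 9.09% of 13970 genes, among them Scnn1g at 1.33 (edgeR adjusted p = 0.00039) and Sgk1 at 1.55 (edgeR adjusted p = 0.0099). The signs of Scnn1g and Scnn1b in this sum were opposite to those within the distal convoluted tubule. Connecting tubule and principal cells were 178 of 794 and 158 of 643 distal cells with BPTES, and 113 of 622 and 148 of 914 with DMSO, and their part in these values was not tested.

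**Figure D4:**
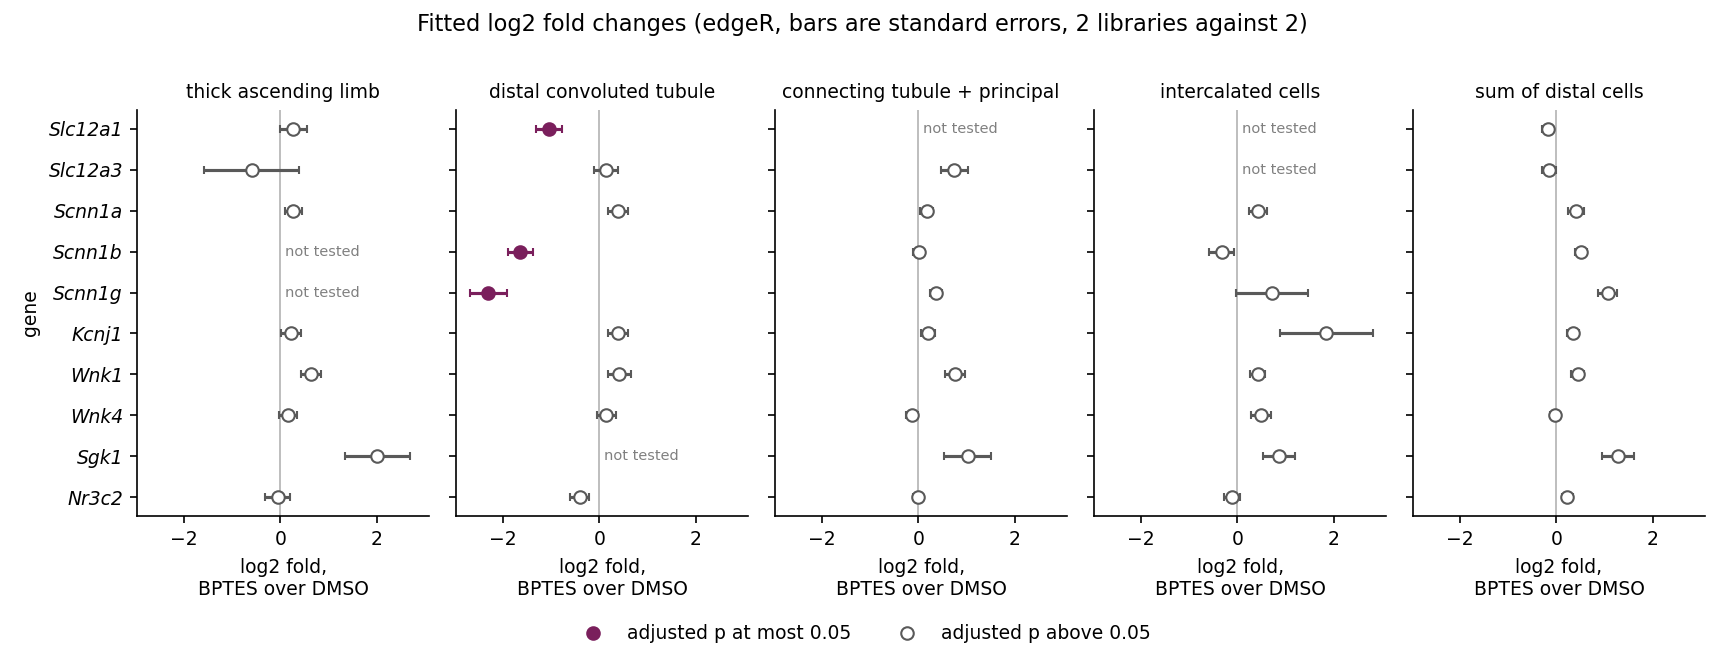
Log2 fold change (BPTES minus DMSO, edgeR) of each of the 10 genes in each segment, with its standard error as bars; filled points passed the threshold. Filled points occur only in the distal convoluted tubule, for Scnn1g at -2.30, Scnn1b at -1.64 and Slc12a1 at -1.04.

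The wider pathway was followed through 30 other genes: chloride channel and potassium recycling partners, the sodium pump, the WNK kinase arm, ubiquitin ligases, steroid receptors and responsive genes, channel proteases, and other sodium and potassium routes. In the distal convoluted tubule 337 of all 10060 genes passed, 3.35%, with a median log2 fold change of -0.01. Of the pathway list 26 were tested, of which 1 was higher, 1 lower and 24 did not pass, with a median of 0.21. The one that rose was Fkbp5, a steroid-induced chaperone partner of the receptors, at 89.3 and 83.7 CPM with BPTES and 60.6 and 44.0 CPM with DMSO (fitted log2 fold change 0.78, SE 0.21, edgeR adjusted p = 0.045). Without BPTES replicate 1, BPTES replicate 2 or DMSO replicate 2 its adjusted p by edgeR was 0.296, 0.089 and 0.191, and it also missed the threshold at a 25% mitochondrial limit (0.242), with the lists used in clustering (0.096) and without sub-cluster 10 (0.187). The one that fell was Hsd11b2, described above. None of the 5 chloride channel and potassium recycling genes, 3 sodium pump genes or 4 tested genes of the WNK kinase arm passed, and Wnk2 and Wnk3 were below the low-count filter.

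In the other segments no gene of the pathway list passed. Of all genes, between 0.0271% (connecting tubule with principal cells) and 0.742% (connecting tubule) did there. Zbtb16, a glucocorticoid-induced transcription factor, gave 2.16 (SE 0.34, edgeR adjusted p = 0.10) in the connecting tubule and principal cells and 1.28 (SE 0.31, edgeR adjusted p = 0.42) in the thick ascending limb. Per1, a clock gene that also responds to aldosterone, gave 1.14 (SE 0.19, edgeR adjusted p = 0.13) over the distal segments and 0.74 (SE 0.20, edgeR adjusted p = 0.13) in the proximal tubule. Hsd11b2 gave -2.42 (SE 0.76, edgeR adjusted p = 0.61) in the thick ascending limb, where it was at 3.80 and 8.28 CPM with BPTES and 9.31 and 59.7 CPM with DMSO. Without sub-cluster 13 these were 3.54 and 7.71 against 3.04 and 4.75 CPM and the direction turned, to 0.53 (edgeR adjusted p = 0.996). It passed with no low-count filter (-2.45) and without DMSO replicate 1 (-3.08), but not without DMSO replicate 2 (-0.55). In intercalated cells it gave 1.5 (SE 1.13, edgeR adjusted p = 0.77), with 97.4% of the UMIs of BPTES replicate 1 in 3 cells. In the class where it belongs, the connecting tubule and principal cells, Hsd11b2 was at 2897 and 2705 CPM with BPTES and 2668 and 3379 CPM with DMSO, which overlapped.

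Malat1 is a long non-coding RNA kept in the nucleus. The thick ascending limb, distal convoluted tubule and connecting tubule each held cells in sub-clusters with little Malat1 and in others with much of it. Principal and intercalated cells were not split. These segments were split at 10000 CPM of Malat1, a limit set after seeing the data, with the sub-clusters mostly of 1 library left out. In the connecting tubule the split set sub-cluster 3 against sub-cluster 11. The distal convoluted list came second in sub-cluster 3, and the principal cell list in sub-cluster 11. There the Malat1 level and the likeness to a neighbouring segment cannot be told apart. Of the genes with UMIs on both sides of the split in every library, Nr3c2 had the highest ratio in each segment. In the thick ascending limb it was at 11.7 to 18.8 CPM in the low-Malat1 cells and 202 to 289 CPM in the high-Malat1 cells, a ratio of means of 16.2. The ratio was 16.4 in the distal convoluted tubule (12.4 to 45.0 against 402 to 463 CPM) and 34.4 in the connecting tubule (28.8 to 54.8 against 1347 to 1627 CPM). It was higher in the high-Malat1 cells of all 4 libraries in each segment. Nr3c2 is the longest gene of the 10, at 345.6 kb. Wnk4, the shortest at 16.84 kb, had ratios of 2.10, 1.69 and 0.66 in the same order of segments. Sgk1, at 117.7 kb, had 0.84 and 1.84 in the distal convoluted and connecting tubule. A link to gene length was not tested. The low-Malat1 sub-clusters were also shallower, with median UMIs of 906 and 5900 against 21810, 2779 against 9739 and 27330, and 2379 against 10990.

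The other genes with UMIs on both sides in every library had smaller ratios. No ratio was taken for Slc12a1 in the distal convoluted tubule, at 0 to 3.52 against 66.2 to 185 CPM. Slc12a1 in the thick ascending limb was at 4421 to 5293 CPM in low-Malat1 and 14589 to 15884 CPM in high-Malat1 cells, a ratio of 3.04, and Slc12a3 in the distal convoluted tubule had a ratio of 4.39. Scnn1g and Scnn1b in the connecting tubule had ratios of 4.25 and 2.77, and both were among the leading genes of its high-Malat1 sub-cluster 11. Kcnj1 had a ratio of 1.01 in the thick ascending limb, but was lower in the high-Malat1 cells of all 4 libraries in the distal convoluted tubule (500 to 625 against 671 to 881 CPM, ratio 0.77) and in the connecting tubule (347 to 493 against 623 to 861 CPM, ratio 0.57). Scnn1a had ratios of 1.21, 0.91 and 0.81 in the 3 segments. Wnk1 had ratios of 1.76 and 1.64 in the first 2 of these segments and 0.47 in the connecting tubule. These are descriptions of clusters, with no test.

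**Figure D5:**
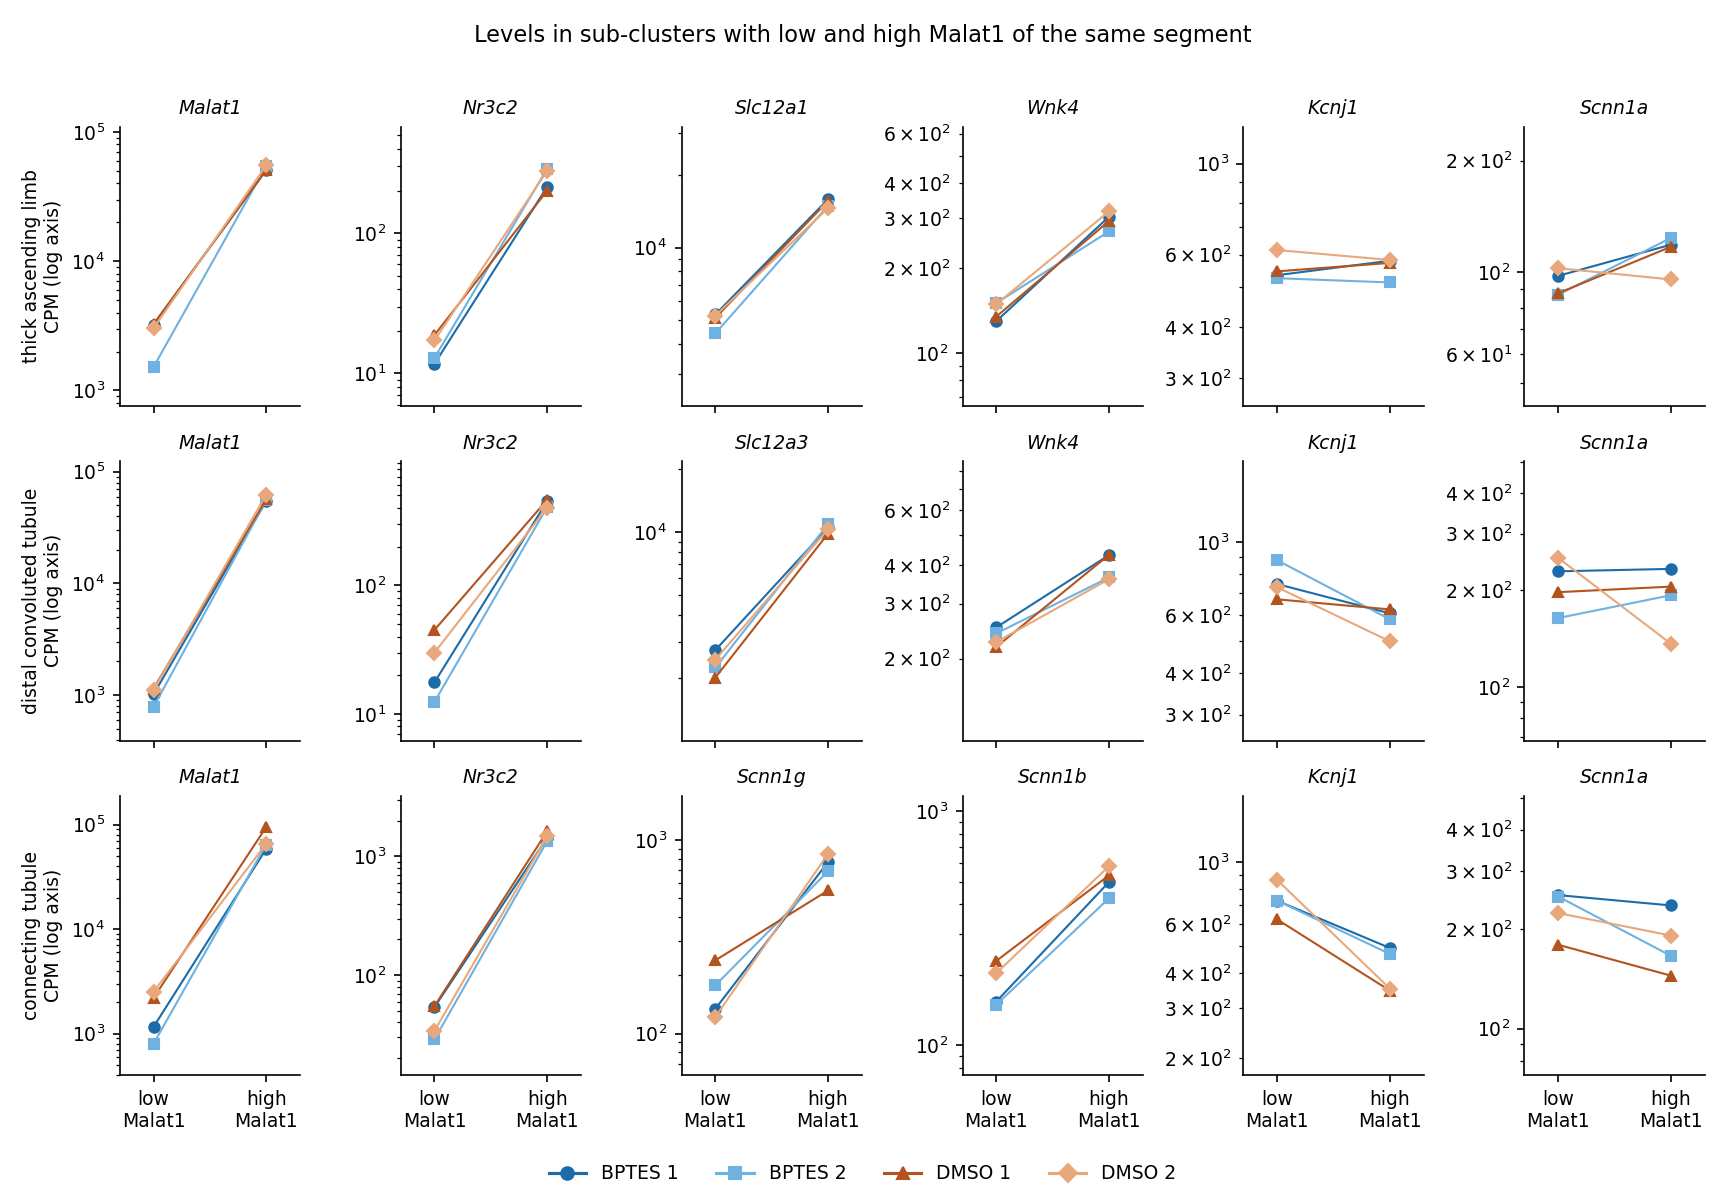
Level of Malat1 and of 5 genes per segment (UMIs per 1000000 UMIs, log axes) in low-Malat1 and high-Malat1 sub-clusters, 1 line per library, with a row for each of 3 segments. Nr3c2 is apart in all 3 segments by ratios of 16.2, 16.4 and 34.4, while Kcnj1 in the thick ascending limb has a ratio of 1.01.

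The mix of these cells differed between the libraries. Low-Malat1 cells gave 30.9% and 30.4% of the distal convoluted UMIs with BPTES and 17.0% and 12.4% with DMSO. In the thick ascending limb they gave 54.0% and 47.0% against 44.6% and 21.4%, and in the connecting tubule 57.7% and 50.2% against 42.1% and 28.4%. With the sub-clusters mostly of 1 library left out, as in the split, the shares were 32.2% and 32.6% against 19.1% and 19.1% in the distal convoluted tubule, and 56.7% and 50.5% against 48.5% and 38.7% in the thick ascending limb. The Nr3c2 levels of the distal convoluted and connecting tubule, given above, lay lower in both BPTES libraries, where low-Malat1 cells gave a larger share of UMIs. In the thick ascending limb these cells also gave a larger share of UMIs in both BPTES libraries. By number they were 85.7% and 86.4% of the thick limb cells with BPTES and 85.2% and 67.8% with DMSO. Nr3c2 overlapped there between the groups. Its levels were 99.6 and 150 CPM with BPTES and 113 and 178 CPM with DMSO, without the sub-clusters mostly of 1 library. The part of the mix in any difference between the groups was not tested. The median UMI count per distal convoluted cell was 5987 and 5034 with BPTES and 9648 and 12679 with DMSO, and the mitochondrial share of UMIs was 21.9%, 19.6%, 18.0% and 18.6%. With the mitochondrial limit lowered to 25%, Scnn1b gave -1.40 (edgeR adjusted p = 0.074), Scnn1g -0.85 (edgeR adjusted p = 0.84) and Hsd11b2 -0.17 (edgeR adjusted p = 0.97), with 0.32% of 8438 genes past the threshold.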

How the data were processed

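The 4 libraries were sequenced from sorted kidney cells. Per the submitters' processing notes, the authors aligned and counted the reads with Cell Ranger 8.0.1 on mm10; the deposited matrices hold the count of UMIs of every gene in every barcode, with no normalization. Gene positions are those of GENCODE vM21 on the same build. Here barcodes with at least 500 UMIs, at least 300 genes and at most 50% mitochondrial UMIs were kept. The barcodes with the highest Scrublet scores, 0.4% per 1000 barcodes of a library (3867 of 50605), were removed as predicted doublets, leaving 46738. Cells were clustered with scanpy 1.11.5 (3000 variable genes, 40 principal components, 15 neighbours, leidenalg 0.10.2), and the distal clusters were clustered again. The 10 genes and the pathway list of 30 were left out of the variable genes. Clusters were named from 119 marker genes of 20 types.

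UMIs were summed per library and class, and BPTES was tested against DMSO with edgeR 4.0.16 in R 4.3.3 (quasi-likelihood test, TMM scaling, low-count filter, Benjamini-Hochberg adjustment over all genes tested, threshold 0.05). Classes with under 20 cells in a library were not fitted. On simulated counts the same steps recovered 36 of 100 genes changed by 1 and 89 of 100 changed by 2 on the log2 scale in the thick ascending limb, and 49 and 98 of 100 in the distal convoluted tubule, with 12 and 10 unchanged genes called. Genes were named by rule: the 10 genes in every class, and of the pathway list those past the threshold or else the 2 largest changes. For likeness, classes with at least 20 cells in every library and genes of at least 20 CPM in a class were used. The 10 genes and the lists were chosen with earlier results of these data known.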

Additional observations from a re-analysis of the deposited data

Results flagged for a closer look

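The effect of BPTES differed between segments for 4 genes by a test of the difference itself (an interaction term in edgeR's fit over both segments). For Scnn1b it was 1.61 higher on the log2 scale in the connecting tubule and principal cells than in the distal convoluted tubule (SE 0.27, edgeR adjusted p = 0.011), and for Scnn1g it was 2.59 higher (SE 0.43, edgeR adjusted p = 0.011). For Hsd11b2 the same difference was 1.93 (SE 0.37, edgeR adjusted p = 0.028). Over all genes 0.563% of 11362 passed. Without BPTES replicate 2 the difference for Scnn1b and Scnn1g missed the threshold, and without BPTES replicate 1 that for Hsd11b2 did, at 1.27 (edgeR adjusted p = 0.36). All 3 rest on the distal convoluted UMIs of which sub-cluster 10 gave the larger part in both DMSO libraries.

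For Slc12a1 the effect in the distal convoluted tubule was below that in the thick ascending limb, with a difference of -1.29 (SE 0.29, edgeR adjusted p = 0.038), where 0.507% of 11052 genes passed. Without BPTES replicate 1 it was -1.24 (edgeR adjusted p = 0.43) and without BPTES replicate 2 it was -1.34 (edgeR adjusted p = 0.40). The distal convoluted side held 3 to 18 cells with an Slc12a1 UMI per library.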

How the results depend on the processing

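Of 410 values of 32 results on single genes in a class or interaction, under the alternatives, 343 kept their direction and side of the threshold, 25 fell short of it, 22 passed it and 20 changed sign. Slc12a3 and Hsd11b2 in the thick limb, which also changed sign, are not among these and are given in the report. Slc12a1 in the thick ascending limb gave -0.014 without DMSO replicate 2 (up to 0.64 with another library left out) and -0.032 without sub-clusters mostly of 1 library, and Wnk4 there -0.071 without those sub-clusters and -0.061 at a 25% mitochondrial limit. In the distal convoluted tubule Slc12a3 gave -0.16 without those sub-clusters and -0.085 with the 10 genes and the pathway list used in clustering, and Wnk4 gave -0.10, -0.016 and, at the 25% limit, -0.058. In the connecting tubule and principal cells Scnn1b gave -0.023 without DMSO replicate 1 (up to 0.047 without DMSO replicate 2). Nr3c2 there gave 0.014 with no filter, -0.051 to 0.037 with 1 library left out (0.037 without BPTES replicate 2), 0.10 at the 25% limit, 0.060 with doublets kept, 0.054 with the lists used in clustering, 0.0054 at resolution 2 and 0.044 without shallow clusters. Nr3c2 in intercalated cells gave -0.28 to 0.041 (0.040 without BPTES replicate 2, 0.041 without DMSO replicate 2), and Slc12a3 over the distal sum -0.33 to 0.034 (the latter without DMSO replicate 2). The BPTES minus DMSO difference in the distal share of tubule cells was -1.64 percentage points and ran from -4.59 to 1.31 when 1 library was left out, with 1.31 without DMSO replicate 2.

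Counts of genes passing moved by over 1.5 times as follows, against 7 in the thick limb, 337 in the distal convoluted tubule, 51 in the connecting tubule, 3 in connecting tubule with principal cells, 6 in intercalated cells, 78 in the proximal tubule, 9 in the distal sum, 0 over all tubule cells, and 56 and 64 for the interactions. In that order, DESeq2 gave 26, 221, 19, 60, 18, 727, 161 and 454. No low-count filter gave 299, 723, 246, 517, 302, 1834 and 948, and 144 and 226 for the interactions. The 25% mitochondrial limit gave 27 in the distal convoluted tubule, 7 in the connecting tubule, 5 with principal cells and 46 in the proximal tubule. Doublets kept gave 747, 23 and 7 in the first 3 of these. The lists used in clustering gave 4 in the thick limb, 134 in the distal convoluted tubule and 844 in the connecting tubule; resolution 2 gave 0 in the thick limb, 126 in the connecting tubule and 15 in the distal sum. RLE scaling gave 22 in the proximal tubule. Chosen after seeing the data, leaving out sub-clusters mostly of 1 library gave 43 in the thick limb, 59 in the distal convoluted tubule and 70 in the distal sum, and leaving out shallow clusters 3, 77 and, in the connecting tubule, 0. With 1 library left out, which leaves a lone library assumed to vary like the others, counts ran from 0 to 1149, 214 to 1865, 12 to 338, 3 to 242, 17 to 428, 4 to 1299, 4 to 1270 and 0 to 1517, and 83 to 365 and 30 to 210 for the interactions. The cause was not tested.

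The replicate numbers are shared by both groups but no label says that they pair libraries, and the correlation of same-numbered deviations was -0.082 to 0.43 over the classes. With the replicate block the counts were 261, 1052, 216, 93, 29, 1865 and 197 in the first 7 classes. Principal cells alone, and their planned interaction with the distal convoluted tubule, were not run, since 3 libraries had under 20 cells; the sum with the connecting tubule took their place. DESeq2 gave no adjusted p for Scnn1b, Scnn1g, Slc12a1, Hsd11b2 and Fkbp5 in the distal convoluted tubule. With the block, Wnk1 and Slc12a3 also passed in the connecting tubule, Scnn1g and Sgk1 in the distal sum, Sgk1 in the thick limb and Wnk1 in the connecting tubule with principal cells and in the proximal tubule. Low counts limit Sgk1 in the thick limb, with 1 to 16 UMIs per library. Scnn1b and Scnn1g were below the low-count filter there with all 4 libraries.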
